A study of Mus musculus with 4 samples.

Results

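Gapdh, a glycolytic enzyme gene, and Mdh1, Suclg2 and Dlst, enzyme genes in or beside the citric acid cycle, were followed across 4 two-colour microarrays of mouse dentate gyrus RNA. Members were chosen by gene symbol in the platform annotation, which gave 28 of the 16281 features on the table: 25 of Gapdh and 1 each of Mdh1, Suclg2 and Dlst. Each array set dentate gyrus RNA of mice given MK-801, which blocks NMDA-type glutamate receptors, in Cy5 against that of mice given saline in Cy3. All donors were young C57BL/6J males, and 1 array was run at each of 1, 2, 4 and 6 h, counted in the labels from a last shock given to MK-801 mice. The labels give 300 µg of MK-801 and 5 µL of saline, each per g of body weight. The MK-801 amount is printed as labelled, and whether its unit is right was not tested. The labels call both RNAs those of control mice, so whether the animals on these arrays were shocked, and how many were pooled, is not settled.

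The values are log ratios deposited by the authors, read here as log2 and centred on each array's median. The sources used here state neither the log base nor which channel is on top. A positive value can therefore stand for more RNA in MK-801 mice or for more in saline mice, and results are given by sign alone. An exact 0 was taken as no value, and after that step 12131, 12227, 10185 and 10512 features had a value at 1, 2, 4 and 6 h, and 8777 on all 4 arrays. The 1 h array stood apart: over those 8777 features its ratios had Pearson correlations of -0.06, -0.07 and -0.07 with those at 2, 4 and 6 h, whereas the later arrays correlated at 0.64 to 0.80 with each other. These correlations are across features, which are not independent replicates. Each time was run once, so single values carry no replicate error, and dye, treatment and array cannot be told apart within a time. Fewer cells of a type and less RNA per cell cannot be told apart either.

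Glycolysis splits glucose into pyruvate in the cytosol, and Gapdh carries out its oxidative step, which yields NADH. Pyruvate then feeds the citric acid cycle in mitochondria. Dlst is the succinyltransferase core of the alpha-ketoglutarate dehydrogenase complex, which makes succinyl-CoA, and Suclg2 is the beta subunit of the GTP-forming succinyl-CoA ligase, the enzyme of the following step. Mdh1 is the cytosolic malate dehydrogenase, a part of the malate-aspartate shuttle that carries the reducing power of cytosolic NADH into mitochondria, while Mdh2 is the enzyme inside the cycle. Neurons depend heavily on these pathways for ATP, and Gapdh is widely used as a reference gene.

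Gapdh read below 0 at 1 h and above 0 at every later time. Of its 25 features, 15 had a value on all 4 arrays. At 1 h these ran from -0.45 through a median of -0.26 to -0.08, and at 2 h from 0.05 through 0.54 to 0.60. At 4 h they ran from 0.33 through 0.39 to 0.47, and at 6 h from 0.15 through 0.36 to 0.45. All 15 were negative at 1 h and positive at 2, 4 and 6 h, so the 1 h values did not overlap with those of any later time. Over all 8777 features with 4 values, 16.9% had this order of signs. The 15 features report 1 gene on the same arrays, and this pattern was chosen with its values known, so the count is a description. In time order the means were -0.26 ± 0.09, 0.47 ± 0.14, 0.39 ± 0.03 and 0.35 ± 0.06 (SD over 15 features of 1 array). If the logarithms are to base 2, these means are channel ratios of 0.836, 1.38, 1.31 and 1.27.

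The Gapdh features fall into 2 groups of 12 that share 1 sequence accession, plus a lone feature with another. The groups are numbered 1118 to 1305 and 2678 to 2865, and each feature of the first has a counterpart numbered 1560 higher in the second. In each group 7 of 12 features had 4 values. The first group averaged -0.26 ± 0.02, 0.39 ± 0.18, 0.39 ± 0.03 and 0.33 ± 0.08 at 1, 2, 4 and 6 h, and the second -0.29 ± 0.10, 0.53 ± 0.06, 0.39 ± 0.02 and 0.36 ± 0.0086 (SD, 7 features each). On these features the groups thus read alike at 4 h. The first was the lower and more scattered at 2 h, and the second the more scattered at 1 h. In 5 counterpart pairs both features had 4 values, and the largest differences within a pair, in time order, were 0.18, 0.21, 0.03 and 0.04. At 2 h the second minus the first ran from -0.14 to 0.21, so not every pair went the way of the group means. Pairs outside these 5 could differ widely at 4 h. Feature 1281 read -2.45 there beside 0.37 for its counterpart 2841, and feature 2822 read -2.54 beside 0.33 for 1262. At 1 h feature 2822 read 0.39 and 1262 read -0.29. Feature 1262 was the lowest of the 15 at each later time, with -0.29, 0.05, 0.33 and 0.15 at 1, 2, 4 and 6 h. The lone feature, number 4972, read -0.08, 0.57, 0.47 and 0.45 and was the highest at 1, 4 and 6 h. A member of a different sequence record therefore had the same order of signs.

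**Figure D1:**
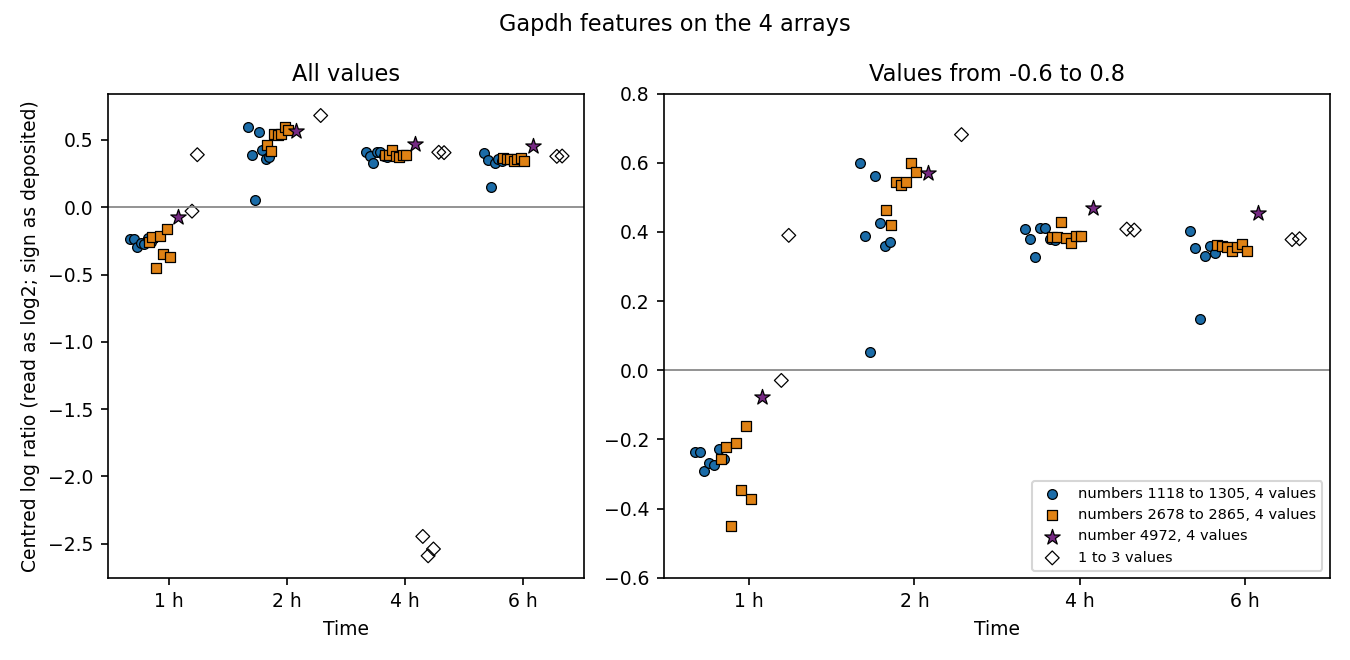
Centred log ratio (y axis, read as log2, sign as deposited) of each Gapdh feature with a value at 1, 2, 4 and 6 h (x axis), with all values on the left and the range from -0.6 to 0.8 on the right. Filled symbols are the 15 features with 4 values, all below 0 at 1 h and above 0 later, and open diamonds are features with 1 to 3 values, 3 of which lie between -2.59 and -2.45 at 4 h.

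The other 10 Gapdh features were incomplete. The table held no value on any array for 5 of them, numbers 1250, 1256, 1274, 1299 and 2816. Feature 2859 had 0.68, 0.41 and 0.38 at 2, 4 and 6 h, and feature 2865 had 0.41 and 0.38 at 4 and 6 h, near the 15 complete features. The last 3 read otherwise: at 4 h features 1281, 2810 and 2822 gave -2.45, -2.59 and -2.54. At 1 h feature 2810 read -0.03 and feature 2822 read 0.39, the only positive Gapdh value on that array. None of these 3 had a value at 2 or 6 h. Of all features with a value at 4 h, 2.0% lay at or under -1, among them these 3 of 20 Gapdh features. On the other arrays 0.412% (1 h), 0.957% (2 h) and 1.44% (6 h) of features did, and no Gapdh feature.

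Such low values at 4 h belonged mainly to features that lacked a value elsewhere. At 4 h 178 features lay at or under -1.5, and 79.2% of them had no value on some other array, against 12.7% of the features above -1.5. Between -1.5 and -1 there were 26 features at 4 h, so the low values stood apart from the rest. With every available Gapdh feature averaged, the 4 h mean turned to -0.04 ± 1.07 (SD, 20 features), while the median over the same features was 0.39. The sign of the Gapdh mean at 4 h therefore rests on leaving these 3 features out.

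Mdh1 and Suclg2 had the same order of signs as Gapdh, and Dlst was negative throughout. Mdh1 read -0.15, 0.39, 0.50 and 0.46 at 1, 2, 4 and 6 h. Suclg2 read -0.52, 0.63, 0.72 and 0.50, the widest span of the 4 genes. Dlst read -0.35, -0.16, -0.31 and -0.28, and 14.2% of all features with 4 values were negative on every array. Each of these 3 genes rests on 1 feature, so no second feature checks its values. Over the 3 later arrays Gapdh averaged 0.40 ± 0.06, Mdh1 0.45 ± 0.06, Suclg2 0.62 ± 0.11 and Dlst -0.25 ± 0.08 (SD, n = 3 arrays of different times). No feature of the 4 genes with 4 values reached an absolute value of 1 on any array. Of all features with 4 values, 0.672%, 0.695%, 0.695% and 0.638% reached it, in time order.

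Among the 6661 named genes with 4 values, features averaged per gene, Suclg2 ranked 18th from the highest at 2 h, 43rd at 4 h and 125th at 6 h. At 1 h it ranked 317th from the lowest. The later positions of Mdh1 were less extreme, 248th, 168th and 163rd from the highest at 2, 4 and 6 h, and Gapdh stood at 102nd, 343rd and 365th. Dlst stood at percentile 12.6 at 1 h and at 21.7, 8.98 and 8.60 later. The change between the 1 h and 2 h arrays was 1.15 for Suclg2, 0.73 for Gapdh, 0.54 for Mdh1 and 0.19 for Dlst, which ranked 21st, 220th, 562nd and 2221st from the highest among these genes. After 2 h the steps were smaller: from 2 to 4 h they ran from -0.15 for Dlst to 0.12 for Mdh1, and from 4 to 6 h from -0.21 for Suclg2 to 0.03 for Dlst.

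**Figure D2:**
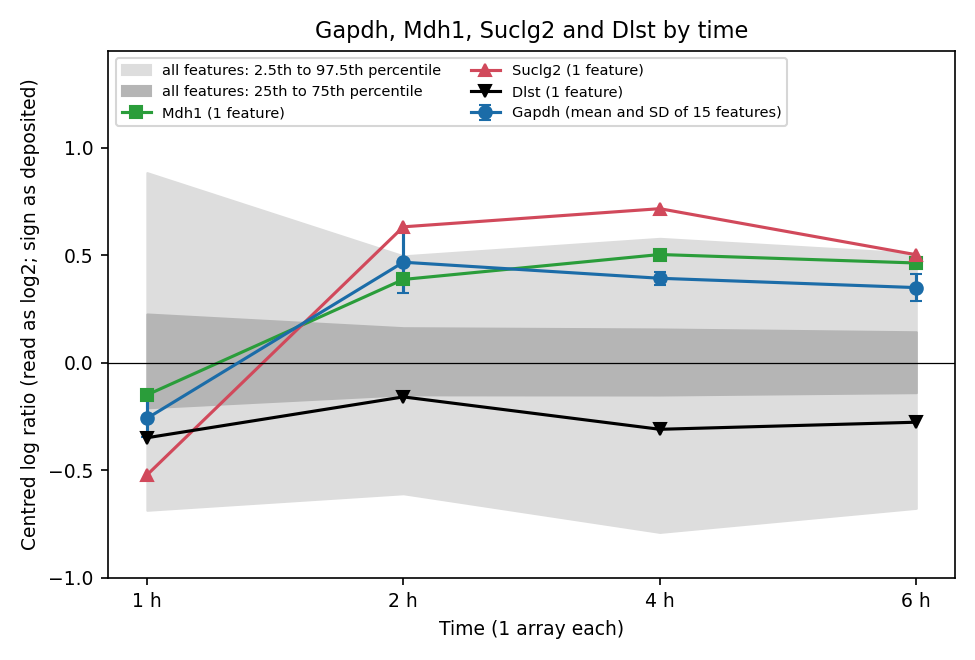
Centred log ratio (y axis, read as log2, sign as deposited) at 1, 2, 4 and 6 h (x axis, 1 array each) of Gapdh (mean and SD of 15 features), Mdh1, Suclg2 and Dlst (1 feature each), over bands for all features with a value on that array. Suclg2 lies above the outer band at 2 and 4 h, Gapdh and Mdh1 lie in its upper part from 2 h on, and Dlst is below 0 at every time.

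Mdh1, Suclg2 and Dlst were picked because the mean of their later arrays differed from 0 in a fit that left out 1 h, so the values of that fit are given as a description. With features averaged per gene, limma called 12.9% of 6661 genes in it. Suclg2 had an adjusted p of 0.00895, Mdh1 0.0151, Gapdh 0.0194 and Dlst 0.0479. Dlst lay just inside the threshold of 0.05, and the nearest citric acid cycle gene outside was Sdhb, an iron-sulfur subunit of succinate dehydrogenase, with a mean of 0.24 and an adjusted p of 0.0878. With single features in place of gene means limma called 12.1% of 8777 features, and Dlst missed the threshold (adjusted p = 0.0519) while Suclg2 (0.0133) and Mdh1 (0.0197) passed it. In that fit 14 of 15 Gapdh features passed, with adjusted p between 0.0171 and 0.0266, and feature 1262 did not (0.145).

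Contrasts over all 4 arrays called none of the 18 member features. In limma, with Benjamini-Hochberg adjustment over 8777 features, 0.0% of features passed for the mean over the 4 times, with 1295 at an unadjusted p under 0.05. The means were 0.30 ± 0.12 for Mdh1, 0.33 ± 0.21 for Suclg2 and -0.27 ± 0.07 for Dlst (SE), with adjusted p of 0.332, 0.471 and 0.242. Those of the 15 Gapdh features lay between 0.06 and 0.35, with adjusted p of 0.286 to 0.825. Letting the arrays count unequally changed this: with array weights limma called 27.4% of features, among them Mdh1, Suclg2, Dlst and 14 of 15 Gapdh features. The weighted means of Mdh1 and Suclg2, 0.44 and 0.54, lay nearer to their later means of 0.45 and 0.62 than to the unweighted ones. For them the weighted fit thus resembled the one without 1 h that picked them, so these calls are a description. The Gapdh features report 1 gene.

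The slope on log2 hours, in which a constant dye bias of a feature cancels, was positive for Mdh1 (0.23 ± 0.08 per doubling of time, SE) and Suclg2 (0.39 ± 0.15) and close to 0 for Dlst (0.0089 ± 0.067). Those of the 15 Gapdh features lay between 0.17 and 0.28. None passed in limma, where 0.0% of slopes did and 1357 had an unadjusted p under 0.05. Adjusted p was 0.288 for Mdh1, 0.311 for Suclg2, 0.954 for Dlst and 0.318 to 0.471 for the Gapdh features. Without the 1 h array the slopes of Suclg2 and of the Gapdh mean turned to -0.06 and -0.07, and that of Dlst to -0.08, so the positive slopes of Gapdh and Suclg2 rest on 1 h. That of Mdh1 was 0.06 without it.

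The 4 and 6 h arrays set against those at 1 and 2 h gave differences of 0.36 ± 0.21 for Mdh1, 0.55 ± 0.39 for Suclg2 and -0.04 ± 0.14 for Dlst (SE), and of 0.16 to 0.36 for the Gapdh features. Again 0.0% of features passed in limma, with 489 at an unadjusted p under 0.05. Adjusted p was 0.767 for Mdh1, 0.769 for Suclg2, 0.940 for Dlst and 0.767 or more for Gapdh. Without the 2 h array, the lone 1 h array stood for early times. The differences were then 0.63 for the Gapdh mean, 0.63 for Mdh1 and 1.13 for Suclg2. Without the 1 h array, with 2 h alone as early, they were -0.096, 0.096 and -0.023 in that order. For Gapdh, Mdh1 and Suclg2 the late values thus lay nearer to those at 2 h than to those at 1 h. These genes were chosen with their later values known, so the differences are a description.

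The sequences before the transcription starts are shown because Gapdh, Mdh1 and Suclg2 shared an order of signs and Dlst did not. All 4 genes matched RefSeq's promoter table of GRCm38.p6, and the 250 bases before each start are printed in the direction of transcription, with matches to the searched motifs in capitals. The windows are chr6:125165774-125166023 on the minus strand for Gapdh, chr11:21571935-21572184 on the minus strand for Mdh1, chr6:95718847-95719096 on the minus strand for Suclg2 and chr12:85110583-85110832 on the plus strand for Dlst.
Gapdh: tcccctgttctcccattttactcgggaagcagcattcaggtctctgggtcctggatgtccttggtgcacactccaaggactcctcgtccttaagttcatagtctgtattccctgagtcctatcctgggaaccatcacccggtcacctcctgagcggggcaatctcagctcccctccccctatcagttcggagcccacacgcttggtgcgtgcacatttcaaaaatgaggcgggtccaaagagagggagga
Mdh1: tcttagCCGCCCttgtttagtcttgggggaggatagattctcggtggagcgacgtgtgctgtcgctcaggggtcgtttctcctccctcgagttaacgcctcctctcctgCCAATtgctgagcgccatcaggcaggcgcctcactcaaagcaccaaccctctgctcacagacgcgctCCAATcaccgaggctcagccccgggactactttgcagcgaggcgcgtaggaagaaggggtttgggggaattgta
Suclg2: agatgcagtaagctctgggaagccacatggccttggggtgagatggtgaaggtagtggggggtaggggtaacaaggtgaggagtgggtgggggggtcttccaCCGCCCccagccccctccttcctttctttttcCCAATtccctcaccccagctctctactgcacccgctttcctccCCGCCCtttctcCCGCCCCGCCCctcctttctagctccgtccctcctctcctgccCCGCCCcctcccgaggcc
Dlst: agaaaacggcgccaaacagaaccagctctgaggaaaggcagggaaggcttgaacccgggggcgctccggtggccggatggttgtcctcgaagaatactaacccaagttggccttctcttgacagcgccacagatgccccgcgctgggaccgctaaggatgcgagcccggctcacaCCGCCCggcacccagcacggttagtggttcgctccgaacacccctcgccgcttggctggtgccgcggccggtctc

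Both strands were searched for the GC box GGGCGG, the CCAAT box CCAAT, the TATA box TATAAA, the cyclic AMP response element TGACGTCA, the E-box CACGTG and the NRF1 motif. Suclg2 held 5 GC boxes, beginning at -148, -73, -61, -56 and -18 from the start, of which those at -61 and -56 share a base, and 1 CCAAT box. Mdh1 held 1 GC box and 2 CCAAT boxes, and Dlst 1 GC box. The Gapdh window held none of the 6 motifs. Of all 32851 windows of this length, 32.7% held a GC box, 33.9% a CCAAT box, 12.4% a TATA box, 1.55% the cyclic AMP response element, 6.02% the E-box and 0.782% the NRF1 motif. No motif was thus held by all 3 genes with that order of signs. The windows were 55.6%, 59.2%, 64.4% and 64.8% G and C for Gapdh, Mdh1, Suclg2 and Dlst, where the median of all windows was 52.4%.

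The rest of glycolysis did not share the full Gapdh pattern as a whole. Of 18 other listed genes, 15 were on the platform and 12 had 4 values, with medians of -0.0054, 0.10, 0.04 and 0.08 at 1, 2, 4 and 6 h. Over all 6661 genes the medians were -0.03, -0.0059, -0.0015 and 0.0030. A negative 1 h value followed by 3 positive ones occurred in 4 of the 12, namely Hk2, Pfkp, Pgk1 and Pkm, and in 17.2% of all genes other than the 4 members. Highest of the 12 over the later arrays were Aldoc, the brain aldolase that acts upstream of Gapdh (0.06, 0.28, 0.40 and 0.45 at 1, 2, 4 and 6 h), and Pgk1, the kinase directly after Gapdh (-0.03, 0.10, 0.39 and 0.39). These neighbours of the Gapdh step came close to its level at 4 h, and Pgk1 was well below it at 2 h. Listed genes without 4 values also held some values near Gapdh. Aldoa read 0.49 and 0.41 at 2 and 6 h, and Pgam2 0.03, 0.40 and 0.37 at 2, 4 and 6 h. Pgam1 had a single value, -0.31 at 2 h.

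Lowest were Eno3, the muscle enolase (-0.15, -0.38, -0.15 and -0.14), and Pfkm, a phosphofructokinase (0.11, -0.04, -0.15 and -0.10). The entry enzyme Hk2, a hexokinase, read -0.41, 0.34, 0.05 and 0.07, and Pfkp, another phosphofructokinase, read -0.26, 0.24, 0.14 and 0.11. Both had their highest value at 2 h, and both were picked for mention after their values were seen. Of the 2 Pkm features, for the pyruvate kinase that ends glycolysis, one read -0.10, 0.55, 0.18 and 0.15 and the other 0.07, 0.13, 0.02 and 0.04, though they share an accession. Gapdhs, the sperm-type paralog of Gapdh, read -0.0054, 0.08, 0.03 and 0.14. Its values stayed within 0.14 of 0, far from those of Gapdh at 2 and 4 h.

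In the citric acid cycle list 11 of 19 genes other than members were on the platform and 9 had 4 values, with medians of -0.04, 0.12, 0.01 and 0.12 at 1, 2, 4 and 6 h. The Gapdh order of signs was found in 3 of the 9, Sdhb, Sdhc and Fh1, and in 17.2% of all genes other than the 4 members. Highest over the later arrays were 2 subunits of succinate dehydrogenase, Sdhb (-0.04, 0.41, 0.06 and 0.26) and Sdhc, a membrane anchor (-0.21, 0.32, 0.01 and 0.15). Both were high at 2 h and near 0 at 4 h, where Mdh1 and Suclg2 read 0.50 or more. Lowest were Idh1, the cytosolic isocitrate dehydrogenase (-0.29, 0.10, -0.52 and -0.18), and Aco1, the cytosolic aconitase (0.36, -0.07, 0.0013 and 0.12). With its mean of -0.25, Dlst stood below all 9.

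Partners and paralogs of the 3 enzymes read otherwise at some or all times. The 3 enzymes were picked for later means away from 0 and these genes were not, so the contrast is a description. Mdh2, the mitochondrial malate dehydrogenase, had -0.02, 0.31, -0.0026 and 0.10, beside -0.15, 0.39, 0.50 and 0.46 for Mdh1. The malate dehydrogenases were thus within 0.13 of each other at 1 and 2 h and 0.3 or more apart at 4 and 6 h. Sucla2, the beta subunit of the ATP-forming ligase and paralog of Suclg2, read 0.18, -0.10, 0.08 and 0.13, opposite in sign to Suclg2 at 1 and 2 h. Suclg1, the alpha subunit that pairs with either, read 0.09, 0.05 and 0.04 at 1, 4 and 6 h and had no value at 2 h. The shared subunit and the other beta subunit therefore lay within 0.19 of 0, unlike Suclg2. Dld, the dehydrogenase that works beside Dlst in its complex, had 0.15 at 2 h and 0.58 at 4 h and no other value, both opposite in sign to Dlst. Ogdh, the third enzyme of that complex, had no feature annotated to it alone. The differences between paralogs were not tested, since each rests on 1 feature and 1 array per time.

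Genes of pyruvate entry and of the malate-aspartate shuttle had medians of -0.07, 0.09, 0.0044 and 0.06 over the 15 of 23 with 4 values. Highest over the later arrays were Pdhb, a subunit of pyruvate dehydrogenase (-0.46, 0.12, 0.25 and 0.71), and Glud1, the mitochondrial glutamate dehydrogenase (-0.43, 0.16, 0.25 and 0.20). Lowest were Gpd1 and Gpd2, the cytosolic and mitochondrial enzymes of the glycerol phosphate shuttle, at -0.56, -0.13, -0.21 and -0.12 and at -0.22, -0.09, -0.05 and -0.14. The listed partners of Mdh1 in the malate-aspartate shuttle that had values were picked for mention after these were seen. Their values at 4 and 6 h were all below the 0.50 and 0.46 of Mdh1. Mdh1 was itself picked for its later values, and ranked 168th and 163rd from the highest among 6661 genes at those times. Most genes thus lay below it, so this is a description and not a contrast within the shuttle. The mitochondrial transaminase Got2 read 0.07, 0.22 and 0.21 at 2, 4 and 6 h and had no value at 1 h. The cytosolic transaminase Got1 read 0.03, 0.11, 0.12 and 0.04, the carrier Slc25a11 -0.15, 0.09, 0.02 and 0.10, and the carrier Slc25a13 0.00075, 0.31, 0.0044 and -0.0081. A second Slc25a13 feature read -0.38 at both 1 and 2 h and had no later value. The Gapdh order of signs was found in 3 of the 15, and in 17.2% of all genes other than the 4 members. Negative on every array were 3 of the 15, and 13.8% of all genes other than the 4 members.

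**Figure D3:**
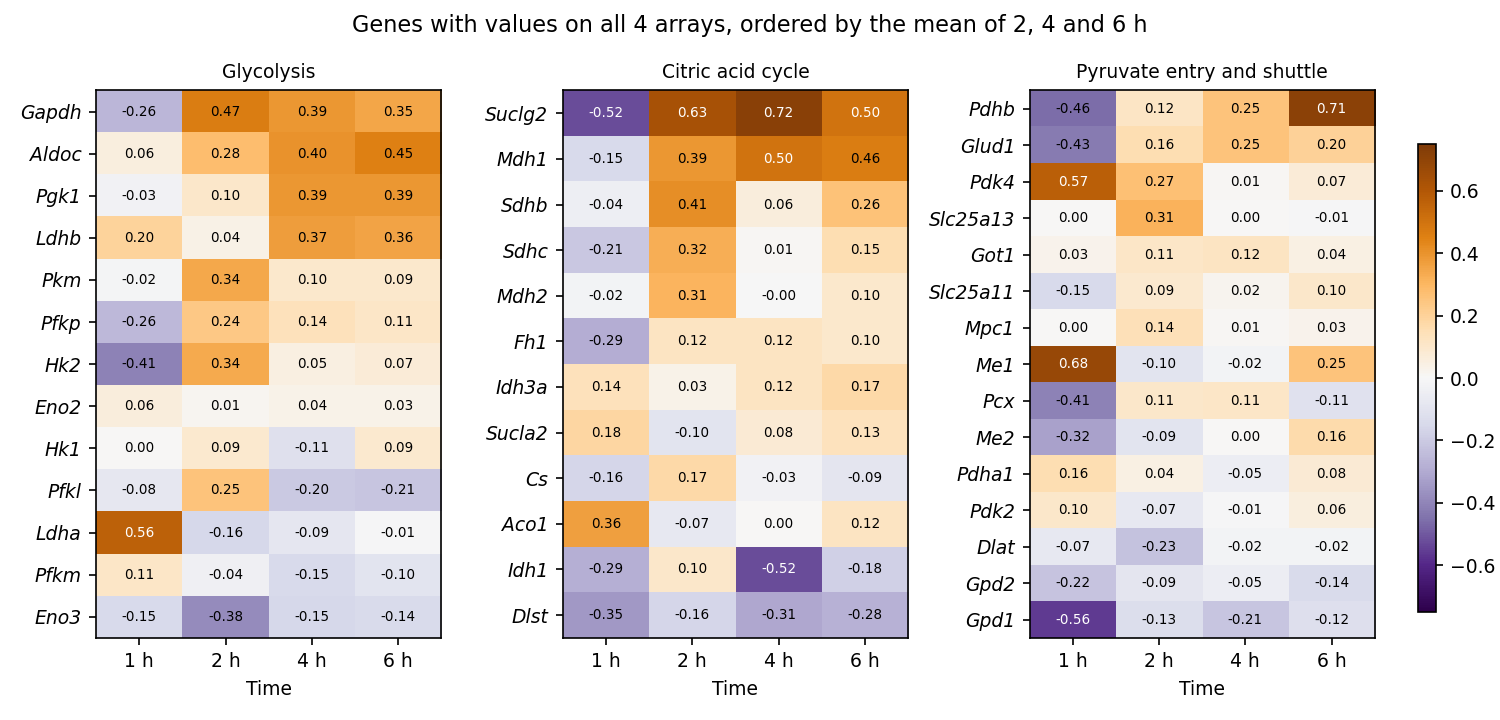
Centred log ratio (colour and printed value, read as log2, sign as deposited) at 1, 2, 4 and 6 h (columns) of genes with 4 values in 3 lists (panels), features averaged per gene and ordered by the mean of 2, 4 and 6 h. Gapdh heads the glycolysis panel, Suclg2 and Mdh1 head the citric acid cycle panel, and Dlst closes it.

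Some features of unrelated genes had nearly the same 4 values as the members. The measure of likeness was the Euclidean distance over the 4 centred ratios, taken over 7666 features of named genes. Nearest to the median Gapdh profile were features of Nucb2 (distance 0.07), Prxl2b (0.08), Grb2 (0.09), Xpo7 (0.12) and Capn3 (0.12). Nucb2, whose product is the precursor of nesfatin, read -0.30, 0.58, 0.40 and 0.39, each within 0.05 of the Gapdh median. Nearest to Mdh1 were Gbp4 (0.06), Ptpn4 (0.10) and Cacfd1 (0.11), and nearest to Dlst were Palmd (0.05), Kat6b (0.07) and Bmper (0.08). Suclg2 had no neighbour as close: Shc3, a neuronal adaptor protein, lay at 0.18, Prkacb, a catalytic subunit of protein kinase A, at 0.19 and Trim3 at 0.28. Mdh1 itself lay 0.24 from Gapdh, with 0.757% of those features nearer. Gapdh and Mdh1 were both chosen with their later values known, so this closeness is a description.

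The 15 complete Gapdh features differed less from each other than complete features of most genes did, most clearly at 4 and 6 h. This leaves out the 3 incomplete Gapdh features between -2.59 and -2.45 at 4 h. Over all 20 Gapdh features with a value there the SD was 1.07, beside 0.03 over the 15. The median absolute difference between 2 complete Gapdh features of the same array was 0.08, 0.12, 0.03 and 0.02 at 1, 2, 4 and 6 h. For the 937 other genes with 2 or more complete features, the median over genes was 0.24, 0.17, 0.16 and 0.13. A larger difference than that of Gapdh was found in 81.6%, 63.7%, 88.5% and 91.2% of them. The contrast was much the same where features share an accession: 0.06, 0.12, 0.02 and 0.02 for 14 Gapdh features against medians of 0.23, 0.18, 0.16 and 0.11 over 170 other genes. Mdh1, Suclg2 and Dlst have 1 feature each, so their own spread between features is unknown. The 0.11 to 0.23 between features of other genes that share an accession gives only a scale. It holds no difference between arrays or animals. No other gene had over 5 features on the platform.

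**Figure D4:**
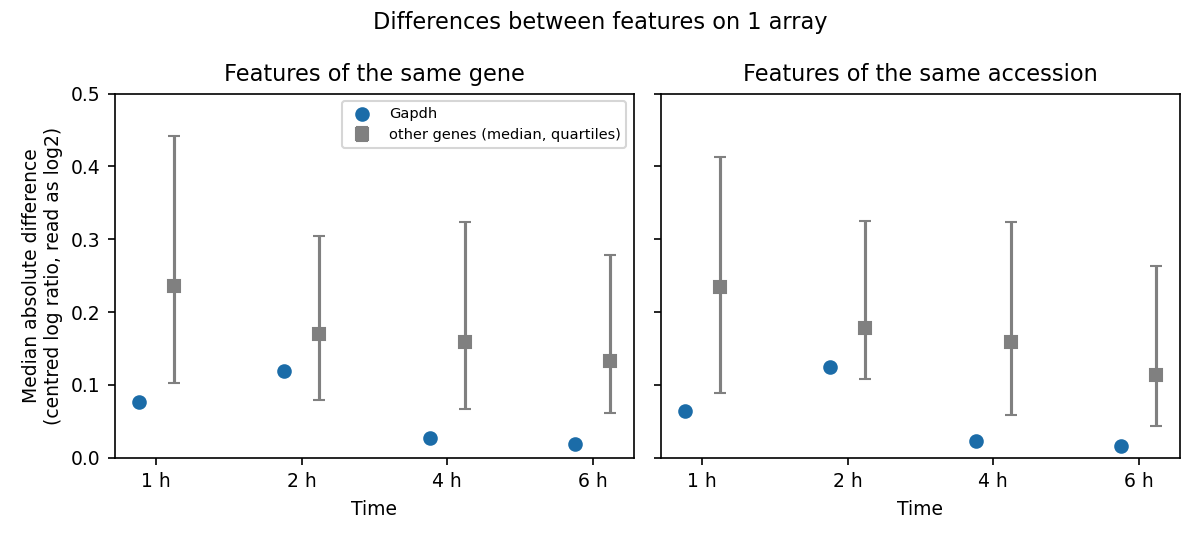
Median absolute difference between features on 1 array (y axis, centred log ratio read as log2) at 1, 2, 4 and 6 h (x axis) for Gapdh (circles) and for other genes (squares, median over genes with quartiles as bars), for features of the same gene (left) and of the same accession (right). Only features with values on all 4 arrays are included. Gapdh lies below the lower quartile of other genes at 1, 4 and 6 h and inside the quartiles at 2 h.

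Features numbered between the Gapdh features did not share their values. Among the 45 other features numbered from 1250 to 1305, those with a value had medians of -0.02, -0.10, 0.00066 and -0.04 at 1, 2, 4 and 6 h. Among the 45 from 2810 to 2865 the medians were 0.06, -0.12, -0.02 and -0.23. At each later time these were below the lowest complete Gapdh feature of 0.05, 0.33 and 0.15. Whether neighbouring numbers mean neighbouring spots was not tested.

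Other genes often used as references had positive medians at every time, 0.13, 0.18, 0.11 and 0.19 at 1, 2, 4 and 6 h over 12 of 20 listed genes with 4 values. At 1 h 8 of the 12 were positive, beside 3018 of all 6661 genes, where all 15 complete Gapdh features, of 1 gene, were negative. At 2, 4 and 6 h 11, 11 and 10 of the 12 were positive, as those Gapdh features were, beside 3250, 3317 and 3366 of all genes. Features without 4 values were left out and went both ways. Actb read -0.03, -0.37 and -0.10 at 2, 4 and 6 h, and a second Tfrc feature -0.36, -2.90 and -3.20 at 1, 4 and 6 h. A second Gusb feature read 0.15 and -1.42 at 1 and 6 h. Eef1a1 read 0.23, 0.07 and 0.18 at 1, 4 and 6 h, and Actg1 0.28 and 0.26 at 4 and 6 h. A second Ywhaz feature read -0.31, 0.51 and 0.97 at 1, 2 and 6 h. Astrocyte markers had medians of -0.02, 0.07, -0.04 and 0.11 over 10 of 10 genes, and at 4 h ranged from -0.25 to 0.40. The 3 highest over the later arrays, Gfap, Aldoc and Slc1a3, averaged 0.38, 0.38 and 0.36, near Gapdh, and the other 7 averaged from 0.07 (Apoe) down to -0.12 (Aqp4) and -0.22 (Sox9). The part of these markers in the Gapdh values was not tested. Oligodendrocyte markers had medians of -0.02, 0.09, 0.15 and 0.07 (5 of 6 genes), microglial markers 0.14, 0.08, 0.29 and 0.31 (5 of 6), blood markers 0.24, 0.27, 0.09 and 0.09 (3 of 7) and choroid plexus markers -0.11, -1.16, -1.09 and -1.17 (2 of 5). The blood markers did not read alike: Car1 had 0.59, -2.81, -4.09 and -2.74, while Hba-a1 and Car2 were positive at each later time. Granule cell markers had medians of -0.21, 0.04, 0.41 and -0.06 (3 of 10), with Prox1, a transcription factor that defines these cells, at -0.57, 0.04, 0.60 and 0.21, Rasgrp1 at -0.19, 0.04, 0.41 and -0.22 and Calb1 at -0.21, -0.16, -0.10 and -0.06. The 3 granule cell markers thus differed from each other at 4 and 6 h. Ratios give no levels, so the tissue label could not be checked from them.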

How the data were processed

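RNA of 4 array pairs, MK-801 against saline at 1, 2, 4 and 6 h, was compared on two-colour arrays. The deposited values are log ratios, read as log2, made by the authors. Scanning, background correction, normalization, log base and direction are not given in the sources used here. Exact 0 was read as no value, since 24.9% to 37.4% of features held it per array. Each array was centred on its median (0.0052 to 0.017 before centring). Features were named through the platform annotation, and identifiers of 13694 of 13738 features with 1 symbol matched the RefSeq gene table of GRCm38.p6. Promoter sequences are RefSeq's.

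limma 3.58.1 in R 4.3.3 (lmFit, eBayes, two-sided, Benjamini-Hochberg at 0.05) was fitted to all 8777 features with values on 4 arrays, for 3 contrasts: the mean, the slope on log2 hours, and 4 and 6 h against 1 and 2 h. The script was tested on simulated data. Replicates are lacking, so p-values rest on the spread among the times. The 13 alternatives per contrast covered zeros, centring, spread, quantile normalization, missing and low values, weights, robust moderation, gene means and leaving out each array. The rule for genes named from the 3 pathway lists took the 2 highest and 2 lowest by later mean, given with members set aside, and paralogs or partner subunits. Other genes named from these and the marker lists were chosen after their values were seen. Likeness took the nearest features, 5 for Gapdh and 3 for the others. No other gene had 8 or more features. Members and lists were chosen with earlier results of these data known. The number of arrays limits the precision.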

Additional observations from a re-analysis of the deposited data

Results flagged for a closer look

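Gapdh, Mdh1 and Suclg2 turned sign between neighbouring times, with 1 array at each. The 2 h value minus the 1 h value was 0.73 for the mean of 15 Gapdh features, every one of which turned, 0.54 for Mdh1 and 1.15 for Suclg2. The difference between the times was not tested, since neither time has a second array. The 1 h array differs from the later ones over the whole table, with a Pearson correlation of -0.06 with the 2 h array over 8777 features.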

How the results depend on the processing

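Of 156 member values under the alternatives of the 3 contrasts, 147 kept their sign. The 9 that turned were slopes or late-against-early differences. Without the 1 h array the slopes of the Gapdh mean, Suclg2 and Dlst turned, and with single arrays left out they ranged from -0.074 to 0.33, -0.064 to 0.62 and -0.082 to 0.026. The late-against-early differences of the Gapdh mean and Suclg2 also turned without 1 h, and ranged from -0.096 to 0.63 and from -0.023 to 1.13. The slope of Dlst, 0.0089 otherwise, also turned with equal spread of the arrays (-0.038), quantile normalisation (-0.038) and array weights (-0.021). Its late-against-early difference ranged from -0.13 to 0.056 and turned without the 2 h array. The cause was not tested. The number of features called for the mean over 4 times, 0 in the main setting, was 9 with quantile normalisation, 19 when 1 missing array was allowed, 2406 with array weights, and 0 to 1059 when single arrays were left out, the highest without 1 h. For slopes it was 0 to 1 with single arrays left out. For late against early times it was 3 with exact 0 read as a value, and 0 to 1570 with single arrays left out, the highest without 2 h. The Gapdh mean at 4 h turned to -0.044 with all its features and to -0.035 with exact 0 read as a value, because 3 low features and the 0 values then enter. With exact 0 read as a value the means at 1, 2 and 6 h moved to -0.14, 0.31 and 0.24. With equal spread of the arrays those at 4 and 6 h moved to 0.43 and 0.41. No paired analysis was possible because the labels give no replicate numbers and each time has 1 array. Signal over background could not be examined from ratios alone.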
